A study of Mus musculus with 188 samples.

Results

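The 10 genes described here are established transcriptional targets of p53, chosen by name as a list, with earlier results of these data known: Cdkn1a, Mdm2, Bbc3, Bax, Pmaip1, Ccng1, Phlda3, Trp53inp1, Sesn1 and Eda2r. Each was found by its Ensembl identifier as 1 row in every count file, so that all 10 were among the 25655 genes listed for batch 1 and the 25528 genes listed for batches 2 and 3. All 10 passed the filter on low counts in both sets, and the lowest count of a member in any grouped library was 46 (Bbc3). The samples were organotypic brain slice cultures (BSCs) of wild-type C57BL/6J mice, cut coronally from male and female animals 6 to 8 weeks old and exposed from day 7 of culture. Bulk mRNA was sequenced from 188 libraries, of which 167 were put in a group from their labels and 21, whose labels disagree, were not.

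In batch 1, all at 24 h, 10 libraries each came from untreated control, from heme-albumin (hemin on human albumin, the low-affinity carrier) at 12.5, 50, 200 and 400 µM, and from heme bound to human hemopexin (hemeHpx) at 200 µM. The titles of these last 10 libraries name haptoglobin where their treatment tag and library name give hpx; the tag was followed, so every hemeHpx value rests on it. Another 20 libraries, tagged HbHpx at 400 µM, have titles that name haptoglobin as well, and they are among the 21 kept out of the groups. Batches 2 and 3 held cell-free human hemoglobin (Hb) at 200 and 400 µM, its complex with human haptoglobin (HbHp) at 200 and 400 µM, and haptoglobin alone (Hp) at 400 µM, each at 24 h and 48 h. The libraries of these groups numbered, at 24 h and 48 h, 10 and 9 for control, 10 and 10 for either Hb dose, 8 and 8 for HbHp 200 µM, 4 and 5 for HbHp 400 µM, and 12 and 11 for Hp. The exposing proteins were of human origin, and the slices lack a blood supply, so the groups model contact of brain tissue with these proteins and not a bleed in an animal. Library names of batches 2 and 3 carry a prefix E1 or E2, which the labels do not define and which is called round here. All HbHp libraries were of batch 3 and round E2, whereas of the controls 7 of 10 at 24 h and 7 of 9 at 48 h were of round E1. All Hp libraries were also of batch 3, in both rounds, whereas most control and Hb libraries were of batch 2. At each time batch 3 held 1 control of E1 and 1 of E2, and only the latter shared both batch and round with HbHp. Both batch and round were therefore terms of the fit for batches 2 and 3. The labels do not say which libraries came from separate animals, so each p-value measures only the spread between these libraries, part of which may be technical.

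The tumor suppressor p53 is a transcription factor that is held at a low level by the ubiquitin ligase Mdm2 and accumulates when DNA damage, oxidative stress or ribosomal stress disturbs that hold. It binds pairs of short half-sites near its target genes, whose products arrest the cell cycle, restrain growth signaling, or drive apoptosis through the mitochondrial pathway. Mdm2 is itself a target, which closes a negative feedback loop, and in brain tissue p53 is best known for its part in neuronal death after excitotoxic or oxidative injury.

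Because the p53 half-site has 10 bases and is its own reverse complement, it can be looked for directly in the sequence before each gene, read on both strands alike. RefSeq promoter windows (GRCm38.p6, 250 bases before to 50 bases after a transcription start) existed for 8 of the 10 members, in 12 windows; none was found for Pmaip1 or Trp53inp1. An exact half-site was present in a window of 5 members, Cdkn1a, Mdm2, Bax, Ccng1 and Sesn1, and in 8.36% of all 32851 windows. The Cdkn1a window held 2 half-sites within 13 bases of each other, an arrangement seen in 0.0731% of all windows (24 windows). These 5 windows are shown because they belong to members that responded and hold the letters that p53 recognizes. Each is written 5′ to 3′ on the strand of its gene, with half-sites in capitals:
Cdkn1a, chr17:29090729-29091028, plus strand: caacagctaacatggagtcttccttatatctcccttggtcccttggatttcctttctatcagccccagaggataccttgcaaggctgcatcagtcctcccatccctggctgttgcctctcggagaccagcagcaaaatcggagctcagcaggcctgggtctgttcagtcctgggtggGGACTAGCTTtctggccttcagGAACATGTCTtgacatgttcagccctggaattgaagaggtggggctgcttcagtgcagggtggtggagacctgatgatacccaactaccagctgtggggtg
Mdm2, chr10:117710709-117711008, minus strand: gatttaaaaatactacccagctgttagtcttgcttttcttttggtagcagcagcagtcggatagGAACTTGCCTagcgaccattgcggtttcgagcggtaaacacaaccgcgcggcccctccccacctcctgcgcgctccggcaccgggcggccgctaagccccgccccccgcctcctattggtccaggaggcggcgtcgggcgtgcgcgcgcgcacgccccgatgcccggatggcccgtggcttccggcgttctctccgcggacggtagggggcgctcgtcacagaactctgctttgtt
Bax, chr7:45466849-45467148, minus strand: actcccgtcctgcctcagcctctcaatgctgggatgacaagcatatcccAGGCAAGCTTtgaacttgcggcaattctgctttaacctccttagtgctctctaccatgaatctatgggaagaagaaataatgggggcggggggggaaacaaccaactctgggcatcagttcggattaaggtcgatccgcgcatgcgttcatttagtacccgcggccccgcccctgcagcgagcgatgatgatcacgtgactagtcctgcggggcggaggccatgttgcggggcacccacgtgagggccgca
Ccng1, chr11:40755237-40755536, minus strand: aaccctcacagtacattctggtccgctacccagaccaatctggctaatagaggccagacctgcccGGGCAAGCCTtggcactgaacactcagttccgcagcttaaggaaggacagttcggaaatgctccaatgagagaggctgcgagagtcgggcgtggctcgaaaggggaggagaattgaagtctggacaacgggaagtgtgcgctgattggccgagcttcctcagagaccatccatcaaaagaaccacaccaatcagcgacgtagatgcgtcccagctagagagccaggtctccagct
Sesn1, chr10:41887189-41887488, plus strand: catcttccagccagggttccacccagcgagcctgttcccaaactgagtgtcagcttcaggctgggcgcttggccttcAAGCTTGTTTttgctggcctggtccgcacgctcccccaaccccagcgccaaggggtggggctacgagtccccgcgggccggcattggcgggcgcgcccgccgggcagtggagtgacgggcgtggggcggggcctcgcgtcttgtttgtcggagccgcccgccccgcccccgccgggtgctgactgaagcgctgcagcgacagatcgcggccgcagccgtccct
The Cdkn1a half-sites begin at -73 and -51 from the start, and the 10 bases directly after the second of them, tgacatgttc, match the half-site at 9 of 10 positions. The single half-site begins at -186 in Mdm2, -201 in Bax, -185 in Ccng1 and -173 in Sesn1. The windows of Bbc3, Phlda3 and Eda2r, the second Cdkn1a window and the other Sesn1 window held no exact half-site. A match describes letters only; binding was not measured, and no match says only that these letters are not in that window.

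Total counts per library spanned 11038484 to 44199060 in batch 1 (median 22054776) and 15587938 to 54174784 in batches 2 and 3, and no pair of libraries of a group agreed within sampling noise. Levels are given as CPM, the count of a gene scaled by the TMM-adjusted total of its library. As a check of the tissue, all listed markers of oligodendrocytes, astrocytes, microglia and neurons were detected in batch 1 controls, with summed levels of 15118 to 27533 CPM for 6 oligodendrocyte markers, 7621 to 11737 CPM for 6 astrocyte markers, 426 to 1799 CPM for 7 microglial markers and 63.4 to 203 CPM for 8 neuronal markers. The 4 choroid plexus markers ranged from 2.05 to 3429 CPM over the same 10 libraries. In bulk RNA, fewer cells of a type cannot be told apart from less RNA per cell.

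Per kb of exon, Ccng1, the cyclin G1 gene, had the highest level of the members in batch 1 controls, at 67.4 ± 9.08 CPM per kb (SD, n = 10). Bax (44.7 ± 10.9), Phlda3 (44.5 ± 10.5) and Cdkn1a (40.02 ± 7.87) followed and lay within their SDs of each other. Mdm2 (21.4 ± 3.12) stood below them, then Trp53inp1 (11.5 ± 1.60) and Sesn1 (11.3 ± 0.961), which did not differ beyond their spread. Bbc3 (3.79 ± 1.39), Pmaip1 (3.09 ± 1.10) and Eda2r (2.56 ± 0.561), again within an SD of their neighbors, were the lowest. In the 24 h controls of batches 2 and 3 the same 4 genes led in another order, with Phlda3 at 83.7, Cdkn1a at 75.6, Ccng1 at 74.6 and Bax at 54.01 CPM per kb, and the same 3 were lowest. The sets were sequenced apart, so no level was compared between them.

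Exposure to heme-albumin moved 4 of the 10 members at 200 µM and 7 at 400 µM. At 400 µM, 6 members rose and 1 fell, and Eda2r (1.79-fold), Cdkn1a (1.70-fold), Bbc3 (1.60-fold) and Phlda3 (1.56-fold) rose most. Sesn1 went the other way, to 0.65-fold. At 200 µM, 3 members rose (Bax, Eda2r and Cdkn1a) and Sesn1 fell, whereas at 12.5 and 50 µM no member passed the test. A call is an adjusted p under 0.05 in the quasi-likelihood test of edgeR, adjusted by Benjamini-Hochberg over all 15554 genes tested. The share of all genes called was 0.0450% at 12.5 µM, 0.463% at 50 µM, 13.6% at 200 µM and 29% at 400 µM. By direction, 6.98% of all genes were called higher and 6.60% lower at 200 µM, and 14.7% and 14.3% at 400 µM. Of the 10 members, 0, 0, 4 and 7 were called. At the 2 lower doses, 2 and 3 members had an unadjusted p under 0.05, and DESeq2 called 0 and 0. The median log2 fold change of the 10 members was 0.00, 0.00, 0.21 and 0.46 at the 4 doses in rising order, beside a median of all genes of -0.01 at each dose.

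Cdkn1a encodes p21, the cyclin-dependent kinase inhibitor that carries the p53 arrest of the cell cycle. Its control libraries ranged from 104 to 200 CPM with a median of 140, those at 200 µM from 121 to 240 with a median of 197, and those at 400 µM from 169 to 344 with a median of 235. The groups overlapped, with 5 of 10 libraries at 200 µM and 8 of 10 at 400 µM above the highest control. The log2 fold change was 0.40 (SE 0.107, adjusted p = 0.00681) at 200 µM and 0.77 (SE 0.107, adjusted p = 8.76e-08) at 400 µM. Ccng1, whose product recruits a phosphatase to Mdm2, had medians of 231, 224 and 239 CPM in control, 200 µM and 400 µM, and its log2 fold changes of -0.03 and 0.09 were not called.

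Mdm2, the feedback inhibitor, had control libraries at 92.6 to 140 CPM (median 105) and libraries at 400 µM at 107.2 to 167.4 CPM (median 140). It was called at 400 µM only, where 5 of 10 libraries stood above the highest control (log2 fold change 0.36, SE 0.073, adjusted p = 8.99e-05). At 200 µM the log2 fold change was 0.11 (adjusted p = 0.353).

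Of the apoptosis genes, Bax, the pore-forming effector of the mitochondrial pathway, had 51.2 to 94.3 CPM (median 68.0) in control, 74.6 to 119 (median 97.5) at 200 µM and 90.8 to 122 (median 105) at 400 µM. It was called at both doses, at 0.44 (SE 0.112, adjusted p = 0.00499) and 0.56 (SE 0.112, adjusted p = 8.14e-05) on the log2 scale, with 6 and 8 of 10 libraries above every control. Bbc3, which encodes the BH3-only protein Puma, rose at 400 µM, from 3.64 to 12.3 CPM (median 8.36) in control to 9.30 to 15.6 CPM (median 13.4), a log2 fold change of 0.67 (SE 0.175, adjusted p = 0.00235). At 200 µM its log2 fold change of 0.42 had an adjusted p of 0.0995. Pmaip1, which encodes the BH3-only protein Noxa, was not called at either dose (log2 fold change -0.36 and -0.08), with medians of 7.80, 6.37 and 8.24 CPM in control, 200 µM and 400 µM.

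Phlda3, a pleckstrin homology protein that competes with Akt for membrane lipids, had 45.7 to 96.8 CPM (median 70.98) in control and 69.8 to 135 CPM (median 108) at 400 µM. The difference at that dose was called (log2 fold change 0.64, SE 0.133, adjusted p = 0.000161), and 8 of 10 libraries lay above every control. At 200 µM its log2 fold change was 0.32 (adjusted p = 0.0985). Trp53inp1, a nuclear stress protein that also takes part in autophagy, was not called at any dose, with log2 fold changes between -0.13 and 0.15.

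Sesn1 and Eda2r moved in opposite directions. Sesn1 encodes sestrin 1, which restrains mTORC1 when leucine is scarce. Its libraries ranged from 38.1 to 49.7 CPM (median 46.01) in control, from 27.1 to 45.1 (median 32.7) at 200 µM and from 21.5 to 41.1 (median 27.6) at 400 µM. At either dose 9 of 10 libraries were below the lowest control, and it fell by 0.43 (SE 0.089, adjusted p = 0.000562) and 0.63 (SE 0.090, adjusted p = 1.48e-07). Eda2r, a receptor of the TNF receptor superfamily for ectodysplasin A2, ranged from 10.3 to 19.6 CPM (median 15.5) in control, 14.7 to 23.9 (median 19.5) at 200 µM and 20.3 to 42.8 (median 25.96) at 400 µM. It was the only member whose 400 µM and control libraries did not overlap, which held, in the direction higher, for 1.37% of all genes. It rose by 0.41 (SE 0.105, adjusted p = 0.0059) and 0.84 (SE 0.105, adjusted p = 5.40e-09).

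Between adjacent doses, Eda2r was also the only member called by edgeR's quasi-likelihood test. It was higher at 200 than at 50 µM (log2 fold change 0.43, adjusted p = 0.029; 0.797% of all genes called) and at 400 than at 200 µM (0.44, adjusted p = 0.0159; 1.27% of all genes called). Between 50 and 12.5 µM the test called 0% of all genes and 0 members, with 0 at an unadjusted p under 0.05 and 0 by DESeq2. Cdkn1a differed by 0.36 between 400 and 200 µM with an adjusted p of 0.0734. For that step DESeq2 called 3 members, and the fit corrected for GC content and length called 4.

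**Figure D1:**
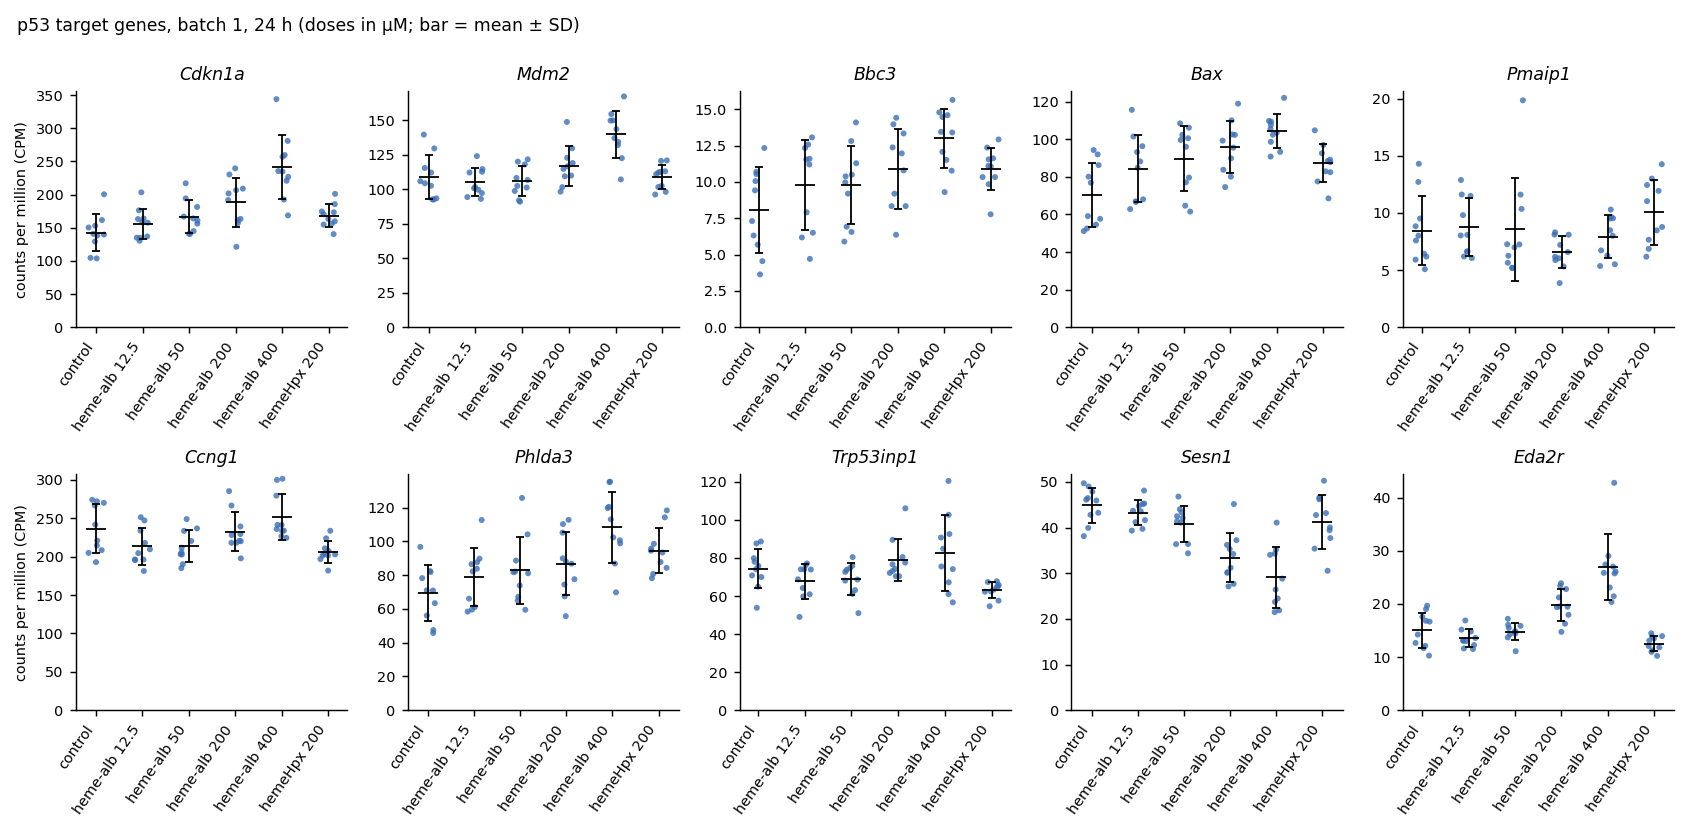
Levels of the 10 members in the 60 libraries of batch 1 at 24 h: each panel is 1 gene, the vertical axis is CPM from 0, the horizontal axis the treatment with its dose in µM, each point 1 library and each bar the mean ± SD of 10 libraries. Cdkn1a and Eda2r are highest at heme-albumin 400 µM (medians 235 and 25.96 CPM), Sesn1 is lowest there (median 27.6 CPM), and Trp53inp1 with hemeHpx (median 64.1 CPM) lies below heme-albumin 200 µM.

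The hemopexin complex asks what remains when the same 200 µM of heme is held by its high-affinity carrier. Against control 1 member was called, Phlda3 (log2 fold change 0.44, SE 0.133, adjusted p = 0.0397), where 8.20% of all genes were called; 7 members had an unadjusted p under 0.05 and DESeq2 called 2. Phlda3 libraries with hemeHpx ranged from 78.2 to 118 CPM (median 94.0) and overlapped with control. After a correction of each library for GC content and length, Phlda3 was at 0.25 (adjusted p = 0.122) and no member was called. Cdkn1a, at 140 to 201 CPM (median 167), differed from control by 0.24 (95% interval 0.03 to 0.45, adjusted p = 0.118), and Mdm2 by 0.00 (-0.14 to 0.15).

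Set directly against heme-albumin 200 µM, 4 members were called (25.9% of all genes). Eda2r, at 10.2 to 14.5 CPM (median 12.6) with hemeHpx, was lower in all 10 libraries than in any heme-albumin library, by a log2 fold change of -0.66 (SE 0.105, adjusted p = 7.00e-06). Trp53inp1 was likewise lower without overlap, at 54.6 to 67.8 CPM (median 64.1) against 70.4 to 106 CPM (median 75.5), a log2 fold change of -0.32 (adjusted p = 0.0111). Such separation in the direction lower held for 0.797% of all genes. Sesn1 (0.30, adjusted p = 0.0117) and Pmaip1 (0.61, adjusted p = 0.0198) were higher with hemeHpx. Cdkn1a was not called (-0.16, 95% interval -0.38 to 0.05, adjusted p = 0.236), nor was Bax (-0.14, adjusted p = 0.358) or Phlda3 (0.12, 95% interval -0.14 to 0.39). The median log2 fold change of the members was 0.12 for hemeHpx against control and -0.12 against heme-albumin, beside 0.00 and 0.01 for all genes.

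Other genes of the pathway were read from lists. Trp53 itself, the p53 gene, rose by a log2 fold change of 0.25 at heme-albumin 200 µM (adjusted p = 0.0247) and 0.32 at 400 µM (adjusted p = 0.00119), while Mdm4, the second inhibitor of p53, was at 0.00 and 0.02 and was not called. Trp53 was lower with hemeHpx than with heme-albumin 200 µM (-0.26, adjusted p = 0.013). Of 18 p53 regulators, 1 rose and 1 fell (Chek2, a checkpoint kinase, -0.22) at 200 µM, and 2 rose and 2 fell at 400 µM (Trp53bp1 0.19, Chek2 -0.27). Of 30 other p53 targets, 9 rose and 1 fell at 200 µM (median 0.12) and 13 rose and 1 fell at 400 µM (median 0.20). The largest rises at 400 µM were those of Lif, a cytokine (1.98), Gdf15, a stress cytokine (1.80), and Sesn2 (1.16), and Ddb2, a sensor of ultraviolet damage, fell (-0.37). Gdf15 and Sesn2 are also known targets of the integrated stress response factor ATF4. Of 18 ATF4 targets, 12 rose and 0 fell at 200 µM (median 0.47), and 13 rose and 0 fell at 400 µM (median 0.79), with Chac1 at 2.26, Trib3 at 2.06 and Slc7a11 at 1.90. Of 20 cell cycle genes, 0 were called at 200 µM (median -0.02) and 4 fell at 400 µM (median -0.31), among them Ccnb2 (-0.57), Birc5 (-0.54) and Mki67 (-0.49). For hemeHpx against control, where 8.20% of all genes were called, 0 of the 30 other targets were. Of the 18 regulators 2 were called, Atr (-0.27) and Usp7 (-0.20), both lower. The ATF4 targets called there were Psat1 (-0.23) and Slc7a5 (-0.23), 2 of 18, and of the 20 cell cycle genes Bub1 (-0.53) was called (median -0.31).

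Markers of other cell types moved at the same doses. At heme-albumin 200 µM, 6 of 7 microglial markers fell (median -0.83), with summed levels of 309 to 782 CPM against 426 to 1799 CPM in control, 3 of 6 astrocyte markers fell (median -0.30), and 0 of 8 neuronal markers were called (median -0.08). At 400 µM, 3 of 7 microglial markers (summed 310 to 1025 CPM) and 4 of 6 astrocyte markers fell, and 1 of 8 neuronal markers rose (Slc17a7, 1.66). With hemeHpx, 0 of 7 microglial markers were called (532 to 1418 CPM). The 4 choroid plexus markers were not called at either heme-albumin dose or with hemeHpx, but their summed level varied widely between libraries, from 2.05 to 3429 CPM (median 4.63) in control, 2.74 to 1157 CPM (median 3.61) at 200 µM, 1.65 to 979 CPM (median 282) at 400 µM and 2.85 to 1730 CPM (median 270) with hemeHpx. The 5 meningeal fibroblast markers, none of them called there, had summed medians of 618 CPM in control, 397 CPM at 200 µM, 482 CPM at 400 µM and 637 CPM with hemeHpx. The part of these shifts in the members' differences was not tested.

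In batches 2 and 3 round E2 differed from E1 in 7 of 10 members, near the share of 68.0% of all 16473 genes, so the count is no feature of the members. Eda2r (log2 fold change -0.58), Trp53inp1 (-0.36), Ccng1 (-0.19) and Bax (-0.06) were lower in E2, and Pmaip1 (0.33), Phlda3 (0.25) and Mdm2 (0.14) higher. All 7 microglial markers were higher in E2 (median 1.12) and 18 of 20 cell cycle genes lower. In the 48 h controls Eda2r had 17.6 ± 1.14 CPM in the 7 libraries of E1 and 9.86 and 10.5 CPM in the 2 of E2. Every HbHp library was of E2, so the main calls are given also for a fit of E2 alone.

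No member was called with cell-free Hb. At 200 and 400 µM, at 24 h and 48 h, edgeR called 0 of 10 in each of the 4 comparisons, DESeq2 called 0 in each, and 1, 1, 4 and 3 members had an unadjusted p under 0.05 (200 and 400 µM at 24 h, then at 48 h). The share of all genes called was 0.0971%, 0.522%, 0.310% and 0.601% in the same order. Eda2r at 400 µM and 48 h had the largest difference of these (0.31, 95% interval 0.08 to 0.53, adjusted p = 0.354). Cdkn1a at 400 µM had 217 to 318 CPM (median 269) at 48 h against 202 to 305 CPM (median 234) in control, a difference of 0.11 (95% interval -0.06 to 0.28). Between Hb 400 and 200 µM no member and 0% of all genes were called at either time, with 0 at an unadjusted p under 0.05 and 0 by DESeq2 at both.

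Bound to haptoglobin, the same hemoglobin was followed at 48 h by higher values of most members in the fit over all controls, and of 4 members when only the libraries of round E2 were fitted. As fitted with batch and round, 7 of 10 members rose with HbHp 200 µM (11.9% of all genes called), and with HbHp 400 µM 8 rose and Sesn1 fell (11.9% called). In E2 alone 4 rose at either dose (3.93% and 4.66% of all genes called). The counts include Trp53inp1, whose mean level was not above that of all controls (63.1 and 66.5 against 68.6 CPM). The share of all genes called higher was 7.04% and 7.39%, and 4.56% were called lower at 400 µM. Eda2r rose most, by 0.84 on the log2 scale (SE 0.143, adjusted p = 1.95e-05) and by 1.12 (SE 0.156, adjusted p = 7.11e-08). The members' median log2 fold change was 0.38 and 0.45, beside -0.01 and 0.00 for all genes, and 0.12 for either dose of Hb. At 24 h, 1 member was called for HbHp 200 µM (Trp53inp1; 1.93% of all genes) and 3 for HbHp 400 µM (Mdm2, Bbc3 and Eda2r; 5.15% of all genes).

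Mdm2 did not overlap with control at either HbHp dose at 48 h. Its 9 control libraries ranged from 90.7 to 116 CPM (median 104) and the 8 libraries of HbHp 200 µM from 135 to 186 CPM (median 143). The 5 libraries of HbHp 400 µM were at 173, 153, 165, 159 and 157 CPM. Each treated library was thus above the highest control, which held, in the direction higher, for 1.15% and 3.10% of all genes. On the log2 scale the differences were 0.44 (SE 0.073, adjusted p = 1.04e-05) and 0.56 (SE 0.080, adjusted p = 1.33e-07). At 24 h the 4 libraries of HbHp 400 µM, at 182, 172, 145 and 146 CPM, were also above all 10 controls (104 to 139 CPM, median 110; 1.93% of all genes), with a log2 fold change of 0.41 (SE 0.083, adjusted p = 0.000597). Of these controls the 3 of E2 were at 129, 139 and 131 CPM, and in E2 alone the difference was 0.30 (adjusted p = 0.0766).

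Cdkn1a at 48 h ranged from 202 to 305 CPM (median 234) in control and from 286 to 372 CPM (median 354) with HbHp 200 µM. With HbHp 400 µM its libraries were at 444, 341, 355, 401 and 371 CPM, all above the highest control, while 6 of 8 were at 200 µM. The 2 controls of E2 were at 271.5 and 305 CPM, above the mean of 229 CPM in E1. Fitted, these were differences of 0.41 (SE 0.105, adjusted p = 0.00423) and 0.58 (SE 0.116, adjusted p = 0.000155). Phlda3, in the same way, had 87.2 to 142 CPM (median 105) in control, 136 to 202 CPM (median 154) at 200 µM and 186, 159, 165, 171 and 153 CPM at 400 µM, and it rose by 0.35 (adjusted p = 0.0112) and 0.42 (adjusted p = 0.00403) on the log2 scale. Its E2 controls were at 129.8 and 142 CPM, against a mean of 99.95 CPM in E1, and in E2 alone its differences were 0.21 (adjusted p = 0.361) and 0.28 (adjusted p = 0.24).

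Among the apoptosis genes at 48 h, Bax rose at both HbHp doses (by 0.25 at 200 µM, adjusted p = 0.0066, and by 0.31 at 400 µM, adjusted p = 0.00138), from 77.3 to 87.1 CPM in control to 86.7 to 142 CPM at 200 µM and to 111, 103, 101, 113 and 104 CPM at 400 µM. All 5 libraries at 400 µM and 7 of 8 at 200 µM were above every control. Bbc3 was called at 400 µM (0.42, adjusted p = 0.00543, and 0.0588 without replicate 1; libraries at 21.8, 13.7, 15.98, 17.5 and 18.6 CPM against 11.9 to 14.8 CPM in control) and not at 200 µM (0.21, adjusted p = 0.173). At 24 h Bbc3 was already higher at 400 µM, where 18.4, 17.2, 16.7 and 18.6 CPM all exceeded the 10.0 to 16.4 CPM of control (0.46, adjusted p = 0.00595), but in E2 alone the difference was 0.27 (adjusted p = 0.493). The other members called at 24 h were Eda2r and Trp53inp1. Eda2r with HbHp 400 µM was at 20.9, 24.6, 19.3 and 23.1 CPM against 14.3 to 23.3 CPM (median 20.9) in control (0.56, SE 0.162, adjusted p = 0.0248), and the call was lost without replicate 1 (adjusted p = 0.0618), replicate 2 (0.112) or control replicate 10 (0.0502), and in E2 alone (0.47, adjusted p = 0.213). Trp53inp1 with HbHp 200 µM was at 51.4 to 74.6 CPM (median 66.4) against 37.95 to 84.2 CPM (median 75.8) in control, so that its levels were not above control. The fitted difference was 0.44 (adjusted p = 0.00944); without batch and round in the fit it was -0.13, in E2 alone it was 0.49 (adjusted p = 0.0865), and without control replicate 10 it was 0.36 (adjusted p = 0.101). Cdkn1a at 24 h with HbHp 400 µM was at 320, 360, 325 and 318 CPM against 228 to 331 CPM (median 266) in control, a difference of 0.23 (95% interval -0.01 to 0.47, adjusted p = 0.303).

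Pmaip1 was not called in any comparison with control, and its log2 fold changes against control in these batches lay between -0.14 and 0.14. Within E2 at 48 h, however, its 2 controls were at 28.67 and 16.1 CPM. Below both were 7 of 8 libraries of HbHp 200 µM, 4 of 5 of HbHp 400 µM and 4 of 6 of Hp. None of these libraries was above the higher control. Within E1 at 48 h the mean went the other way, at 11.97 CPM with Hp and 10.48 CPM in control.

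Ccng1, Trp53inp1 and Eda2r are given with the round beside them. Ccng1 was called at both doses at 48 h (0.42, SE 0.075, adjusted p = 3.80e-05, and 0.48, adjusted p = 9.20e-06), although 233 to 362 CPM (median 262) at 200 µM overlapped with 195 to 259 CPM (median 247) in all controls. Trp53inp1 had 54.6 to 80.98 CPM (median 61.1) at 200 µM and 78.7, 59.0, 57.8, 66.7 and 70.4 CPM at 400 µM against 41.6 to 82.5 CPM (median 72.9) in all controls, so that its unadjusted levels were not above control. Within E2, however, its 2 controls were at 54.5 and 41.6 CPM, and all 8 and all 5 HbHp libraries were above both. The fitted differences were 0.47 (SE 0.107, adjusted p = 0.00142) and 0.54 (adjusted p = 0.000508), and without batch and round in the fit they were -0.12 and -0.04. Eda2r had 16.1 to 26.3 CPM (median 20.7) at 200 µM and 31.98, 20.5, 23.5, 21.96 and 25.2 CPM at 400 µM, against 9.86 to 19.1 CPM (median 16.7) over all controls and 9.86 and 10.5 CPM in E2.

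Sesn1 was lower at 48 h with HbHp 400 µM, at 33.6, 38.4, 39.3, 39.7 and 39.98 CPM against 38 to 59.4 CPM (median 48.2) in control, a log2 fold change of -0.28 with an adjusted p of 0.0493. Leaving out any 1 of the 5 HbHp 400 µM libraries ended this call (adjusted p between 0.0549 and 0.127). At 200 µM, with 38.5 to 49.8 CPM, it was at -0.17 (adjusted p = 0.232). The groups overlapped at both doses.

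When only the libraries of round E2 were fitted, with 2 controls at 48 h, the same 4 members were called at both HbHp doses: Mdm2 (0.38 and 0.50), Ccng1 (0.45 and 0.51), Trp53inp1 (0.67 and 0.74) and Eda2r (1.09 and 1.37). Cdkn1a kept a positive difference without a call (0.25, adjusted p = 0.327, and 0.41, adjusted p = 0.0994). Bax was at 0.21 (adjusted p = 0.212) and 0.27 (adjusted p = 0.118) there, and at 400 µM Bbc3 was at 0.26 (adjusted p = 0.444) and Sesn1 at -0.11 (adjusted p = 0.651). In batch 3 alone, 4 and 5 members were called, those 4 and, at 400 µM, Bax (0.37), beside 2.17% and 3.65% of all genes. Batch 3 alone held 1 control of E1 and 1 of E2 at 48 h. The latter, replicate 9, was also among the 2 controls of E2 alone, so both fits rest in part on it. It was at 41.6 CPM for Trp53inp1, 195.5 CPM for Ccng1 and 9.86 CPM for Eda2r. The counts of members called over all controls were 7 and 9.

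**Figure D2:**
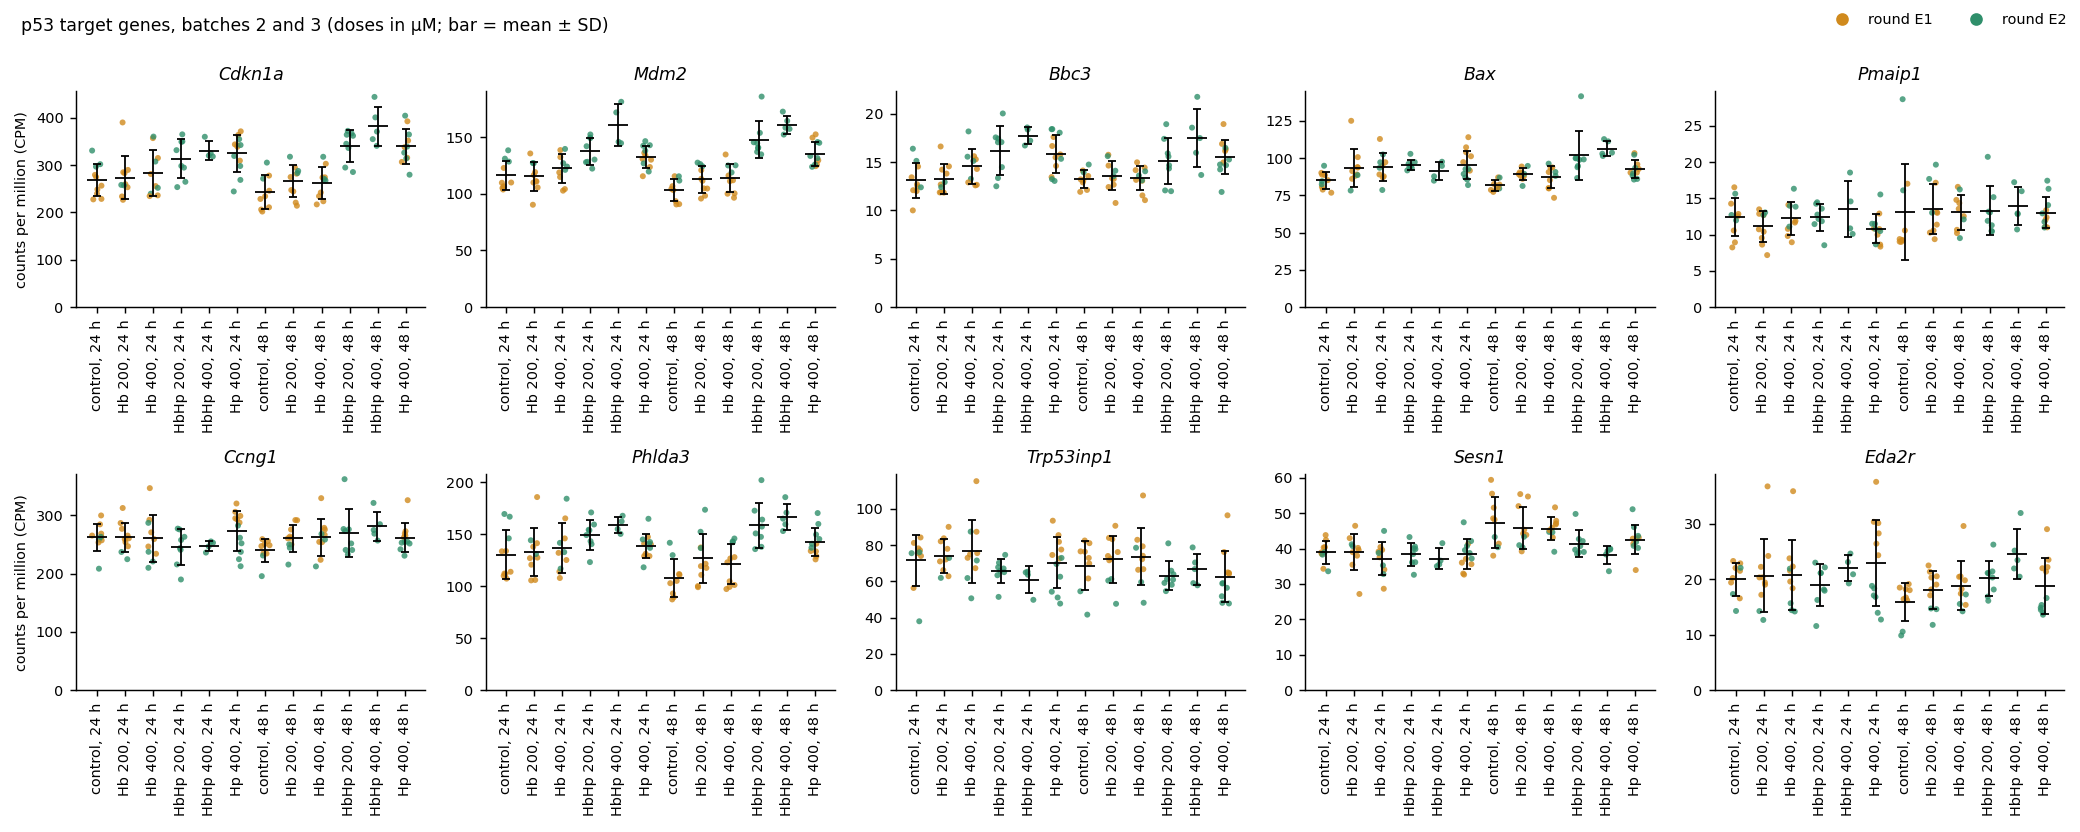
Levels of the 10 members in the grouped libraries of batches 2 and 3: each panel is 1 gene, the vertical axis is CPM from 0, the horizontal axis the treatment, dose in µM and time, points are libraries colored by round and bars the mean ± SD of the group. Mdm2 with HbHp at 48 h lies above every control at that time, and the 48 h controls of Eda2r in round E2 (9.86 and 10.5 CPM) lie below those in E1.

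Hp alone, the scavenger without its ligand, was also followed by higher levels as fitted. All Hp libraries were of batch 3, which held 1 control of E1 and 1 of E2 at 48 h. At 48 h 7 members were called, all higher as fitted with batch and round (10.8% of all genes called, 4.88% in that direction): Cdkn1a (0.45, SE 0.096, adjusted p = 0.00143), Eda2r (0.43, adjusted p = 0.0209), Mdm2 (0.37, SE 0.066, adjusted p = 8.69e-05), Phlda3 (0.30), Ccng1 (0.29), Trp53inp1 (0.28) and Bbc3 (0.27). Mdm2, at 124 to 153 CPM (median 132), was above every control in all 11 libraries, which held for 0.127% of all genes. Cdkn1a, at 280 to 405 CPM (median 338), overlapped with control. Trp53inp1 averaged 73.3 CPM with Hp and 74.4 CPM in control within E1, and 53.7 and 48.1 CPM within E2, where there were 2 controls. Over both rounds, which the groups hold in unlike shares, the means were 62.6 and 68.6 CPM. Its fitted 0.28 became -0.13 without batch and round, and its adjusted p was 0.0627 without control replicate 7 and 0.0953 without replicate 9. In round E2 alone and in batch 3 alone no member (0.0304% and 0% of all genes) was called for Hp by edgeR's quasi-likelihood test; there Mdm2 was at 0.25 (adjusted p = 0.373) and 0.32 (adjusted p = 0.589). At 24 h 1 member was called, Bbc3 (0.33, adjusted p = 0.0475; 0.704% of all genes); without control replicate 8 or 10 its adjusted p was 0.0579 and 0.0685.

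The direct comparison of the complex with its parts set HbHp beside Hb and beside Hp at the same dose and time. Against Hb 200 µM at 48 h, 4 members were higher with HbHp (4.98% of all genes called, 3.14% higher): Eda2r (0.61, adjusted p = 0.00437), Trp53inp1 (0.37, adjusted p = 0.022), Mdm2 (0.33, adjusted p = 0.00272) and Ccng1 (0.29, adjusted p = 0.00977). In E2 alone only Eda2r of these was called (0.71, adjusted p = 0.0498; 0.329% of all genes), in batch 3 alone none (Eda2r 0.69, adjusted p = 0.154; 0.0424% of all genes), and with GC correction only Mdm2 (0.27, adjusted p = 0.0233). Against Hb 400 µM at 48 h, 6 were higher (4.28% called, 2.84% higher): Eda2r (0.81, adjusted p = 0.00032), Cdkn1a (0.47), Mdm2 (0.43), Bbc3 (0.42), Trp53inp1 (0.41) and Ccng1 (0.34). In E2 alone only Mdm2 (0.39, adjusted p = 0.0135) and Eda2r (0.79, adjusted p = 0.0123) were called (2.80% of all genes), with Cdkn1a at 0.43 (adjusted p = 0.0752). Without HbHp replicate 1, Bbc3 (adjusted p = 0.0917) and Trp53inp1 (0.103) were not called. Trp53inp1 was also not called without replicate 4 (0.0598). Its mean level with HbHp was 63.1 CPM at 200 µM and 66.5 CPM at 400 µM, below the 72.1 and 73.5 CPM of all Hb libraries but above the 56.4 and 62.1 CPM of the 3 Hb libraries of E2 at either dose. Without batch and round its difference was -0.19 and -0.14.

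Mdm2 did not overlap between HbHp and Hb at 48 h at 200 µM (0.540% of all genes), nor did Cdkn1a, Mdm2, Bax and Phlda3 at 400 µM (1.82%). These levels had neither batch nor round removed, and at either dose 7 Hb libraries were of E1 and 3 of E2. Phlda3 with Hb 400 µM averaged 111 CPM in E1 and 144 CPM in E2. Bax and Phlda3 were not among the members that the fit called there. At 24 h the fit called Trp53inp1 at 200 µM (0.40, adjusted p = 0.0425; 0.607% of all genes), although its mean was 65.7 CPM with HbHp and 74.1 CPM with Hb (67.4 CPM within E2). That difference was -0.17 without batch and round and was not called in E2 alone (adjusted p = 0.857) or batch 3 alone (0.266). At 24 h the fit also called Mdm2 at 400 µM (0.34, adjusted p = 0.0129; 2.21%; in E2 alone 0.35, adjusted p = 0.0386, and 1.03%), again without overlap (0.838%) but with an adjusted p of 0.165 or 0.0742 without HbHp replicate 1 or 2. Against Hp 400 µM at 48 h, Eda2r (0.69, 95% interval 0.42 to 0.95, adjusted p = 0.000971) and Bax (0.23, adjusted p = 0.0336, and 0.0738 to 0.158 without HbHp replicate 1, 3 or 4) were higher with HbHp (1.44% of all genes called), whereas Cdkn1a differed by 0.14 (-0.07 to 0.34) and Mdm2 by 0.19 (0.05 to 0.32, adjusted p = 0.159). At 24 h no member (0.619% of all genes) was called against Hp by edgeR's quasi-likelihood test, with 2 at an unadjusted p under 0.05 and 0 by DESeq2. HbHp 400 and 200 µM had no member called by that test at 24 h or 48 h (0.176% and 0.127% of all genes), with 1 and 2 members at an unadjusted p under 0.05 and 0 and 0 by DESeq2.

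Control slices of 48 h and 24 h differed in 3 members as fitted (4.50% of all genes called). Sesn1 was higher at 48 h (0.28, adjusted p = 0.0117), and Eda2r (-0.40, adjusted p = 0.0246) and Phlda3 (-0.25, adjusted p = 0.0464) were lower. Without control replicate 8 of 24 h, Sesn1 alone was called, with Eda2r at an adjusted p of 0.084 and Phlda3 at 0.0994. The call of Phlda3 was lost also without control replicate 7 (adjusted p = 0.062) or 10 (0.083) of 24 h. In E2 alone and in batch 3 alone 0 members were called between the times, and 1 was when the fit left out round. More members were called at 48 h than at 24 h, but the difference of a treatment's effect between the times was called for 0 members by edgeR's quasi-likelihood test and 0 by DESeq2, and for 0.0121% of all genes with HbHp 200 µM, 0.0304% with HbHp 400 µM and 0% with Hb or Hp. At an unadjusted p under 0.05 there were 0 members for Hb at either dose, 6 for HbHp 200 µM, 5 for HbHp 400 µM and 2 for Hp. The largest of these differences was Eda2r with HbHp 400 µM, at 0.57 (adjusted p = 0.562).

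**Figure D3:**
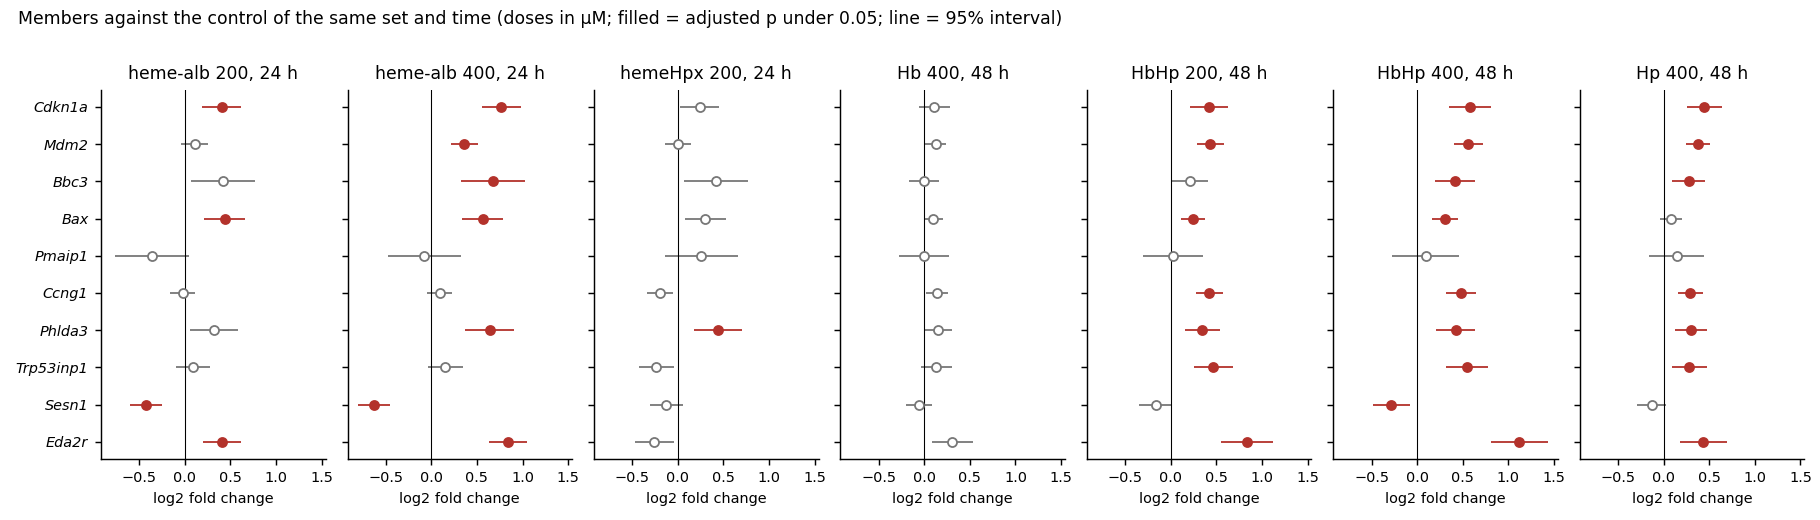
Log2 fold change of each member against the control of the same set and time in 7 comparisons (horizontal axis, log2 scale; vertical axis, gene; line, 95% interval; filled red, adjusted p under 0.05; open gray, not called). Sesn1 lies left of 0 with heme-albumin (-0.43 and -0.63), Hb 400 µM at 48 h has no filled point, and Eda2r has the largest value with HbHp 400 µM (1.12).

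The p53 gene was not called in any comparison of Hb, HbHp or Hp with control. Trp53 was at -0.11 (adjusted p = 0.40) with HbHp 200 µM and at 0.00 with HbHp 400 µM at 48 h, and Mdm4 at 0.06 and 0.09. Of 18 p53 regulators, 3 rose with HbHp 200 µM at 48 h, the deacetylase Sirt1 (0.27), and the ubiquitin ligases Rchy1 (0.23) and Cop1 (0.15). Of 30 other p53 targets, 3 rose and 3 fell with HbHp 200 µM (median 0.12), 8 rose and 1 fell with HbHp 400 µM (median 0.18), and 2 rose and 2 fell with Hp (median 0.07). Those called with HbHp 200 µM were Polk, a translesion polymerase (0.34), Aen, an apoptosis nuclease (0.32), and Plk2 (0.32), and on the lower side Epha2 (-0.74), Gtse1 (-0.37) and Fdxr (-0.28). Of 20 cell cycle genes, 15 fell with HbHp 200 µM (median -0.41; Plk1 -0.71, Aurkb -0.64, Foxm1 -0.63), 13 with HbHp 400 µM (median -0.46) and 17 with Hp (median -0.43), where 11.9%, 11.9% and 10.8% of all genes were called. In E2 alone 3, 5 and 0 of these 20 genes were called, all lower (medians -0.36, -0.37 and -0.14), beside 3.93%, 4.66% and 0.0304% of all genes, and in batch 3 alone 0 were (medians -0.32, -0.33 and -0.25). Of the 30 other targets, E2 alone gave 2 higher with HbHp 200 µM, 6 higher and 1 lower with HbHp 400 µM, and 0 with Hp. Of 18 ATF4 targets, 5 rose and 2 fell with HbHp 200 µM, where Slc7a11, the cystine transporter, was at 1.73 and Ddit4 at -0.60; in E2 alone 1 rose and 0 fell. At 24 h with HbHp 200 µM, Gadd45a (0.30), Sirt1 (0.25), Slc7a11 (1.43) and Slc3a2 (0.37) rose, and Cth (-0.83), Ccne1 (-0.44) and Mcm3 (-0.42) fell.

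Cell type markers stood beside these results as follows. At 48 h, 0, 1 and 0 of 7 microglial markers were called with HbHp 200 µM, HbHp 400 µM and Hp (the 1 lower), and 0 of 8 neuronal markers were called in any of them. Summed microglial markers were 474 to 3379 CPM in control, 1594 to 2596 CPM with HbHp 200 µM and 1128 to 3000 CPM with HbHp 400 µM. The 4 choroid plexus markers had median log2 fold changes of 1.97, 1.13 and 1.86 with 0 called. Their summed level at 48 h had a median of 2.80 CPM in control and 409.82 CPM with Hp. With HbHp the median was 544.67 CPM at 200 µM and 248.76 CPM at 400 µM. Libraries varied widely, from 0.962 to 402.14 CPM in control and from 2.29 to 1733.7 CPM with HbHp 200 µM. The part of these markers in the members' differences was not tested.

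Between libraries of the same group, after group means (and in batches 2 and 3 also batch and round) were removed, the members did not vary as 1 block. The median Pearson correlation of the 45 pairs was -0.06 over the 60 libraries of batch 1, with 19 pairs above 0, and 0.30 over the grouped libraries of batches 2 and 3, with 32 pairs above 0. The median correlation of the members with all genes was -0.0003 and -0.0097 in the 2 sets. Cdkn1a and Phlda3 went together in both sets (0.90 and 0.90), and Ccng1 with Eda2r (0.63 and 0.79) and with Trp53inp1 (0.68 and 0.67). Sesn1 ran against Cdkn1a in both (-0.60 and -0.73). In batch 1, Bbc3 went with Bax (0.85) and Phlda3 (0.81) and against Ccng1 (-0.79), whereas in batches 2 and 3 Mdm2 went with Phlda3 (0.80) and Cdkn1a (0.76). The GC content of the transcripts was 65.2% for Bbc3, 63.5% for Bax and 62.6% for Phlda3, and 40.8% for Ccng1, 40.9% for Eda2r and 38.8% for Trp53inp1; its part in these correlations was not tested. All pairs share their libraries and so any error of scaling.

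**Figure D4:**
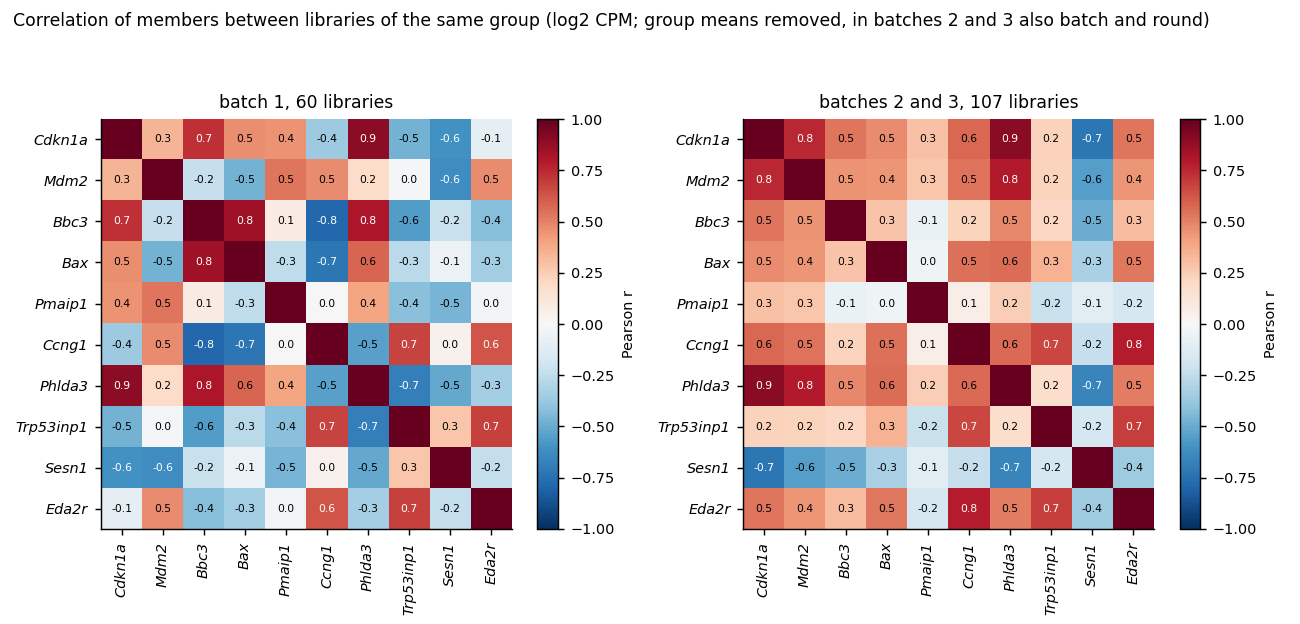
Pearson correlation of log2 CPM between each pair of members over libraries, left for the 60 of batch 1 and right for the grouped libraries of batches 2 and 3, with the means of the groups removed (axes, genes; color scale from -1 to 1; numbers in the cells, r to 1 decimal). Cdkn1a and Phlda3 are the most alike pair in both panels (0.90), and Sesn1 is negative with Cdkn1a in both.

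Across group means, the genes patterned most like Cdkn1a were Gdf15 (mean of the Pearson correlations over 6 groups of batch 1 and 12 groups of batches 2 and 3, 0.967), Zfand2a, a zinc finger gene induced by proteotoxic stress (0.959), and Hax1, a mitochondrial antiapoptotic gene (0.953), out of 1904 genes whose group means spanned a log2 of at least 0.5 in both sets. Among members, Phlda3 ranked 27 (0.918) and Eda2r 119 (0.799). With Spearman correlations Gadd45b and Dusp1 were at 0.965 and Phlda3 at 0.947. The group means had neither batch nor round removed. The groups of batches 2 and 3 hold the rounds in unlike shares and differ in depth. Median totals at 24 h were, for example, 29560038 for HbHp 200 µM and 45434495 for control. The part of batch, round and depth in this ranking was not tested.

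Positions are those of GRCm38. Cdkn1a lies on chromosome 17 (29090976 to 29100727, plus strand), Ccng1 on 11 (40748552 to 40755311, minus), Mdm2 on 10 (117688875 to 117710758, minus), Bbc3 on 7 (16308393 to 16318205, plus) and Bax on 7 (45461697 to 45466898, minus). Phlda3 lies on chromosome 1 (135766119 to 135769136, plus), Trp53inp1 on 4 (11156431 to 11174379, plus), Sesn1 on 10 (41809935 to 41908424, plus) and Eda2r on X (97333840 to 97377216, minus). Bax overlaps Gm45808 and Sesn1 overlaps 9930024M15Rik on the same strand, and Cdkn1a overlaps AC167363.2 on the other strand, so reads in the shared parts could have been counted for either gene or for neither.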

How the data were processed

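Bulk mRNA was measured in 188 libraries of brain slice cultures. The authors deposited raw counts per gene and library, made with featureCounts on GRCm39 per the submitters' processing notes; the aligner's version and the strand setting of the counting are not given in the sources used here. Identifiers were matched to names, lengths and GC content in GENCODE M21 (GRCm38). Batch 1 (60 libraries, 6 groups) and batches 2 and 3 (12 groups, with batch and round as terms) were fitted apart with edgeR 4.0.16 in R 4.3.3: filterByExpr (minimum count 10, total 15), TMM scaling, quasi-likelihood test and Benjamini-Hochberg adjustment over all genes tested at 0.05. Log2 values used a prior count of 2. Depth limits the low genes most, and counts without molecular identifiers cover counting error only.

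The members and the lists were chosen with earlier results of these data known. Named beside the members were Trp53, Mdm4, up to 3 genes raised and 3 lowered most of each further list among those called with a mean of at least 1 CPM, and the 3 genes patterned most like Cdkn1a among genes whose group means span at least 0.5 on the log2 scale in both sets. The rule covered heme-albumin 200 and 400 µM, hemeHpx and HbHp 200 µM against control; Slc17a7 was named after its value was seen. Alternatives were DESeq2 1.42.0, RLE scaling, other filters, a correction for GC content and length, other covariates, subsets of libraries, a replicate block and leaving out libraries. The test was checked on simulated counts: at a log2 change of 0.5 and 1, 59.6% and 92.0% of changed genes were called for heme-albumin 200 µM, and 46.9% and 85.0% for HbHp 200 µM at 48 h. Left out of every comparison were 21 libraries whose labels disagree on their treatment or time.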

Additional observations from a re-analysis of the deposited data

Results flagged for a closer look

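Of 160 pairs of a member and a group tested for a library that stands apart from the rest, 16 (10.0%) had one, where chance flags about 1 in 20. The pairs share libraries and are not independent, and 4 of the 16 were of a single HbHp library. With heme-albumin, Eda2r was lowest in replicate 8 at 50 µM (11.09 CPM) and highest in replicate 9 at 400 µM (42.78 CPM). Among the 24 h controls of batches 2 and 3, replicate 10 was lowest for Ccng1 (208.3 CPM) and Trp53inp1 (37.95 CPM), and among the 48 h controls replicate 9 was lowest for Ccng1 (195.5 CPM). With Hb, replicate 10 at 200 µM and 24 h was highest for Cdkn1a (390.3 CPM) and lowest for Sesn1 (27.17 CPM), and replicate 3 at 400 µM and 48 h was highest for Eda2r (29.63 CPM). With HbHp 200 µM at 48 h, replicate 1 was highest for Mdm2 (186.1 CPM), Bax (141.6 CPM), Ccng1 (362 CPM) and Sesn1 (49.81 CPM), and at 24 h replicate 6 was lowest for Pmaip1 (8.528 CPM) and replicate 2 for Trp53inp1 (51.41 CPM). With HbHp 400 µM, replicate 1 was lowest for Sesn1 at 48 h (33.61 CPM) and for Trp53inp1 at 24 h (49.79 CPM).

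The 21 libraries put in no group had high levels of several members beside the 19 controls of batches 2 and 3, which pool both rounds and times. Their median was 394.3 CPM for Cdkn1a, with 18 of 21 above the highest control (326 CPM), and 154.4 CPM for Mdm2, with 17 above 138 CPM. It was 20.27 CPM for Bbc3, 99.57 CPM for Bax and 178.5 CPM for Phlda3, each with 15 of 21 above the highest control. Eda2r had a median of 40.35 CPM, with 20 of 21 libraries above 23.7 CPM. The labels of each of these libraries disagree on its treatment or time, so they were put in no group and no test was made.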

How the results depend on the processing

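With 36 comparisons of the members, 435 alternative counts of members called were within 1.5 times the reported one and 71 were not. For single members, 5011 values kept direction and call, 169 lost and 56 gained a call, 7 reversed and 1 value without a test moved (the likeness of Eda2r to Cdkn1a, 0.582 with Spearman correlations). All 7 reversals were of Trp53inp1 in the fit with neither batch nor round: against control, -0.13 (HbHp 200 µM, 24 h), -0.12 (HbHp 200 µM, 48 h), -0.044 (HbHp 400 µM, 48 h) and -0.13 (Hp, 48 h), and against Hb, -0.17 (200 µM, 24 h), -0.19 (200 µM, 48 h) and -0.14 (400 µM, 48 h). The cause was not tested.

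For hemeHpx against control the count was 2 among the 30 libraries alone and by DESeq2, 0 with GC correction or no filter, and 6 with the replicate block, where Bax, Bbc3 and Phlda3 were higher and Ccng1, Eda2r and Trp53inp1 lower. For heme-albumin 400 against 200 µM it was 3 by DESeq2, 4 with GC correction and 2 with the replicate block, and for 50 µM against control 1 with that block. For HbHp 200 µM at 24 h it was 2 by DESeq2, with batch without round, with neither term and with the sex letter, and 0 with each time alone, in E2 alone and without the 4 controls of batch 3. For HbHp 400 µM at 24 h it was 1 with each time alone and 0 in E2 alone. For Hp at 24 h it was 2 by DESeq2 and with at least 10 counts in every library, and 0 in batch 3 alone, in E2 alone, with batch without round, with each time alone, with the replicate block, with no filter and without the 4 controls of batch 3. At 48 h it was 4 (HbHp 200 µM), 5 (HbHp 400 µM) and 0 (Hp) in batch 3 alone, 4, 4 and 0 in E2 alone, and 4 for Hp with each time alone. For HbHp against Hb 200 µM at 24 h it was 2 with batch without round and with neither term, and 0 with GC correction, batch 3 alone, each time alone, the replicate block, no filter, E2 alone and without the 4 controls of batch 3; at 48 h it was 1 with GC correction, 0 in batch 3 alone, 2 with batch without round and with each time alone, and 1 in E2 alone. For HbHp against Hb 400 µM it was 3 in batch 3 alone and 2 in E2 alone at 48 h, and 2 with the replicate block at 24 h. For HbHp against Hp at 48 h it was 1 with at least 10 counts in every library, with each time alone and with no filter, and 0 with batch without round and with neither term. For control 48 h against 24 h it was 0 in batch 3 alone, in E2 alone and with the replicate block, and 1 with batch without round and with neither term.

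Leaving out 1 library gave 0 to 2 calls for HbHp 200 µM and 0 to 2 for Hp at 24 h (0 without control replicate 10, 2 without control replicate 7), 2 to 3 for HbHp 400 µM at 24 h, 7 to 9 at 48 h, 0 to 1 for HbHp against Hb 400 µM at 24 h, 4 to 6 at 48 h, 1 to 2 for HbHp against Hp at 48 h, 6 for Hp at 48 h and 1 to 3 for control over time (1 without control replicate 8 of 24 h). The omission of the 4 controls of batch 3, and the levels within E2, were chosen after seeing the data. The code of the library name was not taken as a pairing, since not every same-code pair correlated: 94 of 169 same-code pairs in batch 1 and 124 of 291 in batches 2 and 3 had a correlation over 0.1, and 30 of 60 libraries of batch 1 and 16 of batches 2 and 3 correlated best with their own code, so the block is given only here. The median correlation was 0.19 and 0.061 within a code against -0.03 and -0.02 between codes, a hint from the data and not the design.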

Other observations

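Of the 21 libraries without a group, 20 carry a tag of hemoglobin with hemopexin and titles that name haptoglobin, and 1 is a control whose labels give both 24 h and 48 h. Over all 21, scaled together with the grouped libraries of batches 2 and 3, Cdkn1a ranged from 294 to 547 CPM, Mdm2 from 128 to 197 CPM, Bbc3 from 13.03 to 25.6 CPM and Eda2r from 12.4 to 55.3 CPM. Bax ranged from 79.1 to 111 CPM and Phlda3 from 139 to 218 CPM. Pmaip1 (median 13.6 CPM) and Sesn1 (median 42 CPM) had 0 libraries above the highest of the 19 controls, and Ccng1 and Trp53inp1 had 5 and 8.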
